A study of Caenorhabditis elegans with 6 samples.

Results

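Autosomal intronic peaks are the ELT-3 peaks of the worm's 5 autosomes whose summits lay inside a protein-coding gene but in none of its exons. ELT-3 is a transcription factor of Caenorhabditis elegans from the GATA family. The peaks were selected on the authors' deposited signal value: of 14525 peaks called on the pooled reads of all replicates, the strongest were taken, 3 times as many as in the authors' own final list. That set of strongest pooled peaks is called the ranked set here. A summit was kept when it was in no exon of any protein-coding transcript and outside a promoter window of 1000 bp upstream to 200 bp downstream of every protein-coding 5′ end. It also had to be more than 200 bp from every tRNA, snoRNA and snRNA gene. This left 371 autosomal intronic peaks, of 2421 autosomal peaks in the ranked set. The rule left out 124 intronic peaks of the X chromosome, and the most alike classes were 596 autosomal intergenic peaks and 1058 autosomal promoter peaks.

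The study is a chromatin immunoprecipitation sequencing (ChIP-seq) experiment on whole animals at the third larval stage (L3), with sonicated chromatin and males and females pooled. All libraries came from strain OP75, genotype unc-119(ed3) III; wgIs75, which stably carries ELT-3 with GFP-FLAG fused to its C-terminal end, so every peak comes from 1 transgenic line. The labels name elt-3 as the target and do not say whether the tag or the protein itself was pulled down. There was 1 group of 6 libraries from 4 biological replicates, numbered 1, 2, 4 and 5, with 3 technical libraries for replicate 2, and no second genotype, treatment or age was compared. Nothing in the labels says whether the replicates were separate cultures, so their spread may be partly technical. The peak lists hold no expression values, so the animals' tissues were not checked against marker transcripts.

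GATA factors bind the sequence WGATAR, where W is A or T and R is A or G, through zinc fingers. In the worm, several of them act in the epidermis, the epithelium that secretes the collagen cuticle and replaces it at each molt, and ELT-3 is known as a factor of differentiated epidermal cells. Worm genes often carry regulatory elements in long introns near the 5′ end, and an intron may also precede a further transcription start of the same gene.

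The sequences below are examples of summit windows, most of them chosen because they hold WGATAR, so they do not show how often it occurs. Each line reaches 50 bp to either side of a summit, plus strand, ce11 (WBcel235), with WGATAR or its reverse complement in capitals. The first 4 are among the strongest peaks with the motif, the next pair comes from genes of epidermal attachment and regulation, and the last pair belongs to the strongest peaks without it.
pkg-2, chrIV:8527726-8527826: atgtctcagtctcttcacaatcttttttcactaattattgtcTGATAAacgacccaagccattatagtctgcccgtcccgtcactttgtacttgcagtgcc
pkg-2, chrIV:8530803-8530903: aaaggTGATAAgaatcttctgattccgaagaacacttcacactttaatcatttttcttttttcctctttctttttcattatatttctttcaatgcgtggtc
D2023.3, chrV:11802599-11802699: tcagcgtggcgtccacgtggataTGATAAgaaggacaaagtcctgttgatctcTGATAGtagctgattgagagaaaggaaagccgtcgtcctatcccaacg
mec-17, chrIV:7985858-7985958: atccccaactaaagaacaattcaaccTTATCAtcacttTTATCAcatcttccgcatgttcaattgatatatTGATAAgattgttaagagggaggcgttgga
mua-3, chrIII:10170459-10170559: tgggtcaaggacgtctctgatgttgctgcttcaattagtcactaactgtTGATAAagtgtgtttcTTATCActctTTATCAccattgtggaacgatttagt
egl-27, chrII:6842900-6843000: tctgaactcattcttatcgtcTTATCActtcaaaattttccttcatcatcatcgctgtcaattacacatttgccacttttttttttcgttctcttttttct
Y111B2A.12, chrIII:12612635-12612735: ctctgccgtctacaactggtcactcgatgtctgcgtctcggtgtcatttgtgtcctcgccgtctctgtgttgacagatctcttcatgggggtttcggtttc
nhr-19, chrII:9603620-9603720: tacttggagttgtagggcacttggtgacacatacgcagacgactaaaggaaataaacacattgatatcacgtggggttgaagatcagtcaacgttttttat

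The mec-17 and mua-3 windows each held 3 copies of the motif, the D2023.3 window held 2 and both pkg-2 windows held 1. The nearest copy lay 5 bp from the summit in the first pkg-2 window, 42 bp away in the second, and 2 bp away in mua-3. Both printed windows without the motif held the 6-mer ACGCAG, and the Y111B2A.12 window also held CGTCTC. In that window a copy of CGTCTC shares letters with the reverse complement of ACGCAG. The mua-3 window, which has the motif, held CGTCTC as well. The window of jun-1, the next strongest peak without the motif, is not printed and held neither. This pair of 6-mers is taken up again with the 6-mer counts.

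Among the autosomal intronic peaks, 136 of 371 (36.7%, Wilson 95% interval 31.9 to 41.7) had WGATAR within 50 bp of the summit, and over the whole ranked set the share was 35.1%. In the flank window of the same length, centred 350 bp to the left, 71 of 371 peaks had it (19.1%, 15.5 to 23.4). The difference was 17.5 percentage points: 113 peaks had the motif at the summit and not in the flank, and 48 had the reverse (exact McNemar test, two-sided, p = 3.2e-07). As a further background, 17.4% of 189613 consecutive windows of that length over all eligible intron sequence held WGATAR. The same letters read backwards were at the summit of 89 peaks and in the flank of 84 (72 peaks at the summit only, 67 in the flank only, exact McNemar p = 0.735).

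The narrower form TGATAA was in 87 peaks (23.5%) at the summit and in 32 (8.63%) in the flank, while 21.2% of the ranked set had it at the summit. That was 81 peaks with it only at the summit and 26 with it only in the flank (exact McNemar p = 9.4e-08). Of the 136 peaks with WGATAR, 95 (69.9%) had a copy within 25 bp of the summit, and the median distance to the nearest copy was 15 bp. There were 58 peaks (15.6%) with 2 or more copies and 19 (5.12%) with 3 or more, up to 5 in the peak of srdh-1. The shares were similar in the other classes. Of intergenic and promoter peaks, 15.8% and 13.6% had 2 or more copies, and 4.36% and 3.50% had 3 or more, also up to 5. The copies lay on both strands of the host gene, with 121 on the strand opposite to the transcript and somewhat fewer on the transcript's own.

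**Figure D1:**
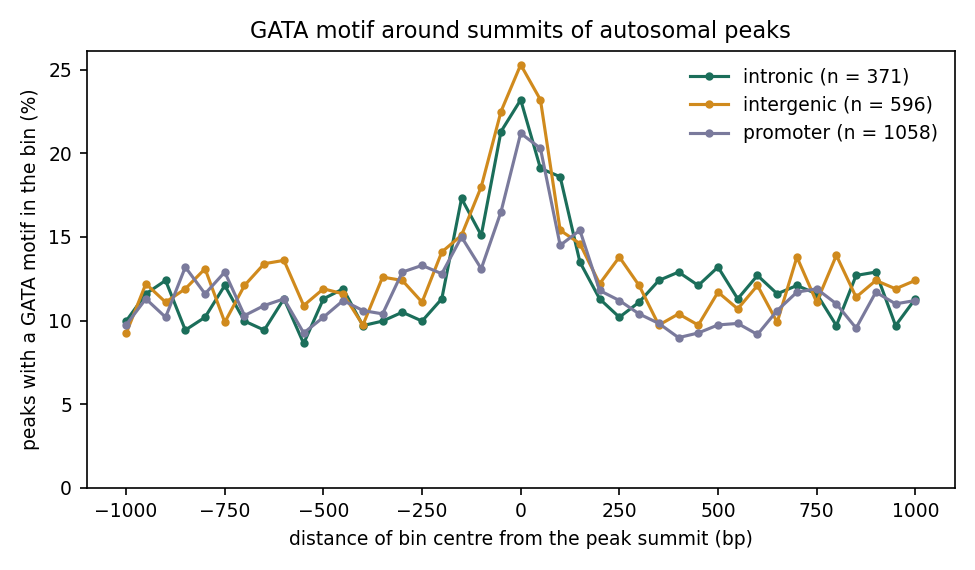
Share of peaks with WGATAR on either strand (vertical axis, %) in bins placed every 50 bp from 1000 bp left to 1000 bp right of the summit (horizontal axis, bp), for autosomal intronic (n = 371), intergenic (n = 596) and promoter (n = 1058) peaks. In the central bin the share was 23.2% of intronic, 25.3% of intergenic and 21.2% of promoter peaks, and beyond 200 bp from the summit intronic bins ranged from 8.63% to 13.2%.

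Summit windows were richer in G and C than their flanks, with a mean of 41.2% against 35.3%, and eligible intron windows averaged 32.5%. WGATAR is itself rich in A and T, and intronic peaks with it averaged 38.4% G and C, against 42.8% for those without. The part of base composition in the other 6-mers was not tested.

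Compared with the other classes, intronic peaks carried WGATAR less often than intergenic peaks, 36.7% against 44.1%. The difference was -7.47 points (Newcombe 95% interval -13.7 to -1.09; two-sided Fisher's exact test, p = 0.0451 after adjustment over 2 class comparisons). This call was lost under most other settings, among them TGATAA alone (-5.74 points, exact test, adjusted p = 0.106), a 25 bp window (-2.15 points, adjusted p = 0.489) and the peaks of the authors' final list (-5.28 points, adjusted p = 0.415). Against promoter peaks, 36.7% of intronic peaks stood beside 34.5%, a difference of 2.16 points with an interval of -3.41 to 7.91 (exact test, adjusted p = 0.487). In the replicates' own lists, the share in intronic peaks minus that in intergenic peaks was -5.59, -5.03, -3.60 and -9.89 points in replicates 1, 2, 4 and 5 (mean -6.03 ± 2.71, SD, n = 4). All 4 were below 0. When 1 replicate was left out and the pooled peaks matched in at least 2 of the other 3 were kept, however, the difference was 2.00 points without replicate 5 and -5.36 to -3.66 without replicate 1, 2 or 4, none past 0.05 by the exact test. The same difference against promoter peaks was -2.65, -0.828, 2.02 and 2.78 points in the replicates' own lists and changed sign between them, and it was 9.88 to 13.3 points when 1 replicate was left out, none past 0.05 by the exact test.

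The 2080 6-mers, counted together with their reverse complements, were compared between summit and flank windows. At an adjusted p under 0.05, 49 were higher at the summit (2.36% of those tested) and 47 were lower (2.26%), by the exact McNemar test with Benjamini-Hochberg adjustment. Of the 2080, 290 had an unadjusted p under 0.05. The number that differed was 96 in all and 33, 24, 7 and 7 without replicates 1, 2, 4 and 5, on the 141, 135, 88 and 92 intronic peaks matched in at least 2 of the other 3. The 6-mer with the lowest p among the higher ones was GATAAG, in 18.9% of summit windows against 3.50% of flank windows (exact test, adjusted p = 1.8e-08) and 2.51% of eligible intron windows. At intergenic and promoter summits GATAAG was in 20.6% and 15.5%. Only 7 of the 49 held GATA or TATC. Of the 47 lower ones, 41 had 5 or 6 letters of A or T, led by AAAATT, which 30 peaks had only at the summit and 133 only in the flank (exact test, adjusted p = 2.3e-13).

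A pair of other groups stood among the 6-mers higher at the summit. GAGAGA was in 78 peaks at the summit (21.0%) and in 23 flanks (6.20%), with 72 peaks on the summit side only and 17 on the flank side only (exact test, adjusted p = 9.4e-07). Its share at the summits of the ranked set was 18.7%, and in eligible intron windows 4.00%. It was in 24 of the 136 peaks with WGATAR (17.6%) and in 54 of the peaks without it. Against intergenic peaks GAGAGA was in 21.0% and 26.8% (exact test, adjusted p = 0.0917), and against promoter peaks in 21.0% and 20.1% (adjusted p = 0.709). The second group was rich in G and C: CGTCTC was in 12.4% of summits against 2.96% of flanks (exact test, adjusted p = 3.3e-04) and ACGCAG in 8.09% against 1.35% (adjusted p = 0.00155). AGACGC (9.16% against 1.89%) and GACGCA (7.82% against 1.08%) were also higher. Together with ACGCAG and GAGACG, the reverse complement of CGTCTC, they can overlap within a longer sequence. These 6-mers are therefore not separate findings. At intergenic and promoter summits CGTCTC was in 10.7% and 12.6%, and ACGCAG in 9.06% and 11.3%. Neither 6-mer was therefore particular to intronic peaks, and the classes were not compared by a test for them. Neither WGATAR nor GAGAGA was found within 50 bp of the summit in 181 of the 371 peaks (48.8%).

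The replicate lists show how far single replicates carry these peaks. Each held 30000 peaks and background regions, and a pooled peak counted as matched when a summit of the replicate's strongest peaks, as many as in the ranked set, lay within 100 bp. Because the replicates' reads are part of the pool, a match is not independent of the choice of peaks. Replicates 1, 2, 4 and 5 matched 92, 109, 186 and 172 of the 371 peaks (24.8%, 29.4%, 50.1% and 46.4%, mean 37.7 ± 12.5, SD, n = 4). Over the ranked set the shares were 26.6%, 27.9%, 54.5% and 47.7%. Replicates 4 and 5 were high and 1 and 2 low in both. In the same order, 26.5%, 25.2%, 59.9% and 50.5% of intergenic peaks were matched. For promoter peaks the shares were 26.3%, 27.1%, 57.0% and 49.8%. The intronic share was below both classes in replicates 1, 4 and 5 and above both in replicate 2, and this was not tested. At any rank, 67.8% ± 13.2 of the intronic peaks (SD, n = 4) had a summit within 100 bp in a replicate list.

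Matches in all 4 replicates were seen for 15 intronic peaks (4.04%, against 5.41% of the ranked set), and 55 had none (14.8%, against 14.2%). Of the 15 matched in all 4 replicates, 10 had WGATAR (66.7%, Wilson interval 41.7 to 84.8), and of the 55 with no match 7 had it (12.7%, 6.30 to 24.0). Between these ends the share was 35.1% with 1 match, 39.2% with 2 and 54.2% with 3. Intergenic peaks had 56.2% at 4 matches and 36.5% at 0, and promoter peaks had 26.8% at 4 and 27.1% at 0. These shares are a description, as both the number of matches and the choice of peaks rest on the same reads.

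**Figure D2:**
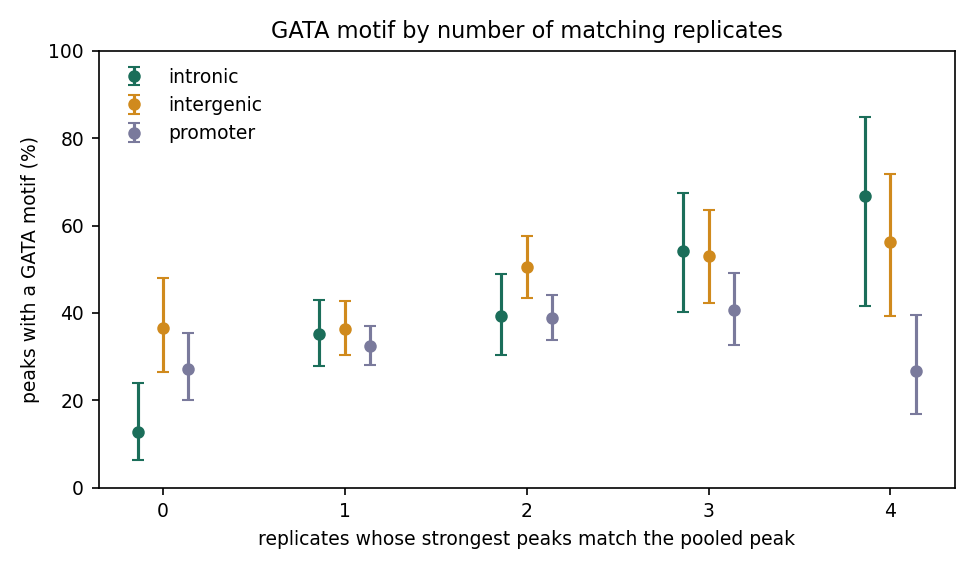
Share of peaks with WGATAR within 50 bp of the summit (vertical axis, %) by the number of replicates, 0 to 4, whose strongest summits lay within 100 bp (horizontal axis), for intronic, intergenic and promoter peaks of the autosomes; bars are Wilson 95% intervals, which cover counting error only. The intronic share was 12.7% at 0 replicates and 66.7% at 4, where it rests on 15 peaks.

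When the same rule was applied to each replicate's own list, it found 499, 537, 382 and 387 intronic peaks in replicates 1, 2, 4 and 5. WGATAR was within 50 bp of 22.8%, 23.8%, 38.2% and 36.2% of these summits and in 22.2%, 19.0%, 20.7% and 19.6% of their flanks. The difference was 0.601 points in replicate 1 (exact McNemar p = 0.881), 4.84 in replicate 2 (exact p = 0.0563), 17.5 in replicate 4 (exact p = 1.1e-07) and 16.5 in replicate 5 (exact p = 6.3e-07). Its mean was 9.88 ± 8.46 points (SD, n = 4). It passed 0.05 in replicates 4 and 5 and missed it in 1 and 2, and the difference between the replicates was not tested. Replicates 1 and 2 also had more of their strongest autosomal summits in exons, 578 and 547, against 252 and 259 in replicates 4 and 5. The part of that difference between replicates in the motif share was not tested.

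**Figure D3:**
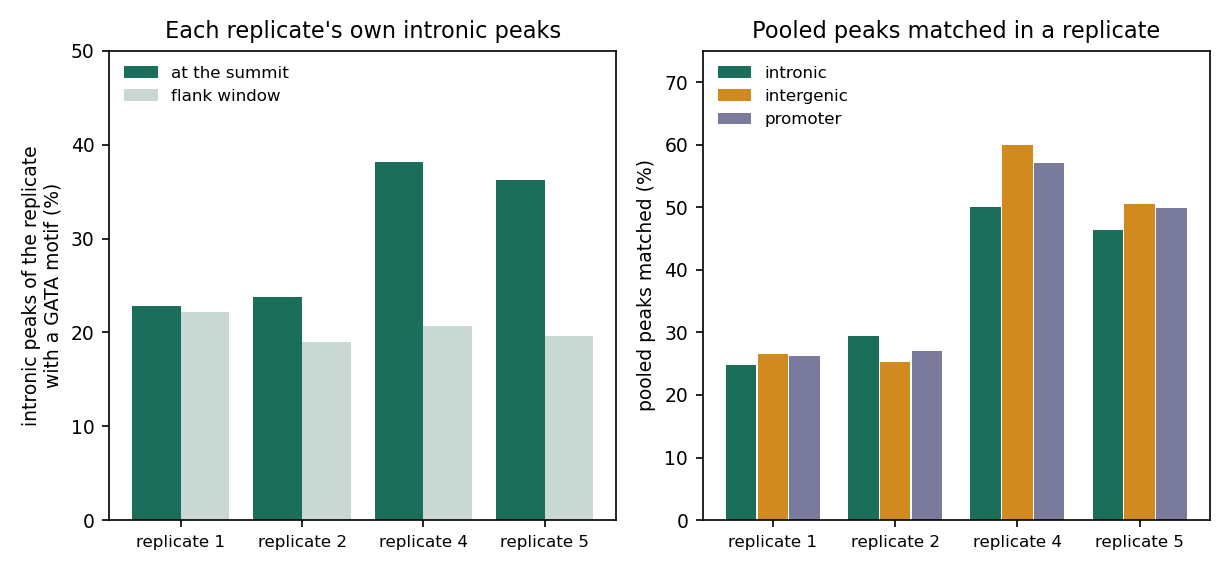
Left, share of each replicate's own autosomal intronic peaks with WGATAR at the summit and in the flank window (vertical axis, %; n = 499, 537, 382 and 387 peaks in replicates 1, 2, 4 and 5). Right, share of pooled intronic, intergenic and promoter peaks matched within 100 bp by the strongest peaks of each replicate (vertical axis, %). Summit and flank shares were 22.8% and 22.2% in replicate 1 and 38.2% and 20.7% in replicate 4.

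The signal of the 371 peaks is a description, since it chose them. It ran from 26.2 to 104 with a median of 32.4, and over the ranked set the median was 34.1 and the highest value 234. The weakest member, in ZC513.2, ranked 3138 with a signal of 26.2, and the first peak left out by rank alone that met the other criteria, in Y42H9AR.5, ranked 3142 with a signal of 26.2. The optimal list, which the authors deposited as their final call, held 117 of the 371 (31.5%, against 33.3% of the ranked set). A deposited q-value of 0.05 or less was given to 178 of them (48.0%, against 55.6% of the ranked set), and the others had a q-value above it. With the intronic peaks divided by rank into 5 groups of like size, the share with WGATAR was 45.3%, 43.2%, 40.5%, 32.4% and 21.6%, highest in the strongest group.

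The strongest intronic peaks were a pair in the 6824 bp intron 4 of pkg-2, which encodes a cGMP-dependent protein kinase, with signals of 104 and 102. The first ranked 200, 1918, 24 and 29 in replicates 1, 2, 4 and 5, and the second ranked 42, 142, 70 and 2437. Both were therefore among the strongest of every replicate, and each was far weaker in 1 replicate. The peak in D2023.3 ranked 31, 554, 330 and 50. The peak of pck-2, a phosphoenolpyruvate carboxykinase gene of gluconeogenesis, had a signal of 93.5 and ranked 290, 152, 79 and 77, the best mean rank of the 15 peaks matched in all 4 replicates. It lay in intron 1, 624 bp downstream of the nearest upstream 5′ end of the gene.

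In klf-1, the gene of a Krüppel-like factor, the peak was also listed by all 4 replicates, at 384, 559, 201 and 48. Other strong peaks differed in which replicates listed them, or in how high. The peak of mec-17, which encodes an alpha-tubulin acetyltransferase of the touch receptor neurons, ranked 956, 26 and 218 in replicates 1, 4 and 5 and was not listed within 100 bp in replicate 2. In jun-1, the gene of a bZIP factor of the Jun family, ranks were 56, 857 and 69 in replicates 1, 2 and 4, and replicate 5 did not list it. The peak in nhr-19, a nuclear hormone receptor gene, ranked 128, 122 and 106 in replicates 1, 4 and 5 and was not listed in replicate 2. A peak in pmt-2, which encodes a methyltransferase of phosphatidylcholine synthesis, ranked 2545, 1564, 77 and 195, higher in replicates 4 and 5 than in 1 and 2.

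**Figure D4:**
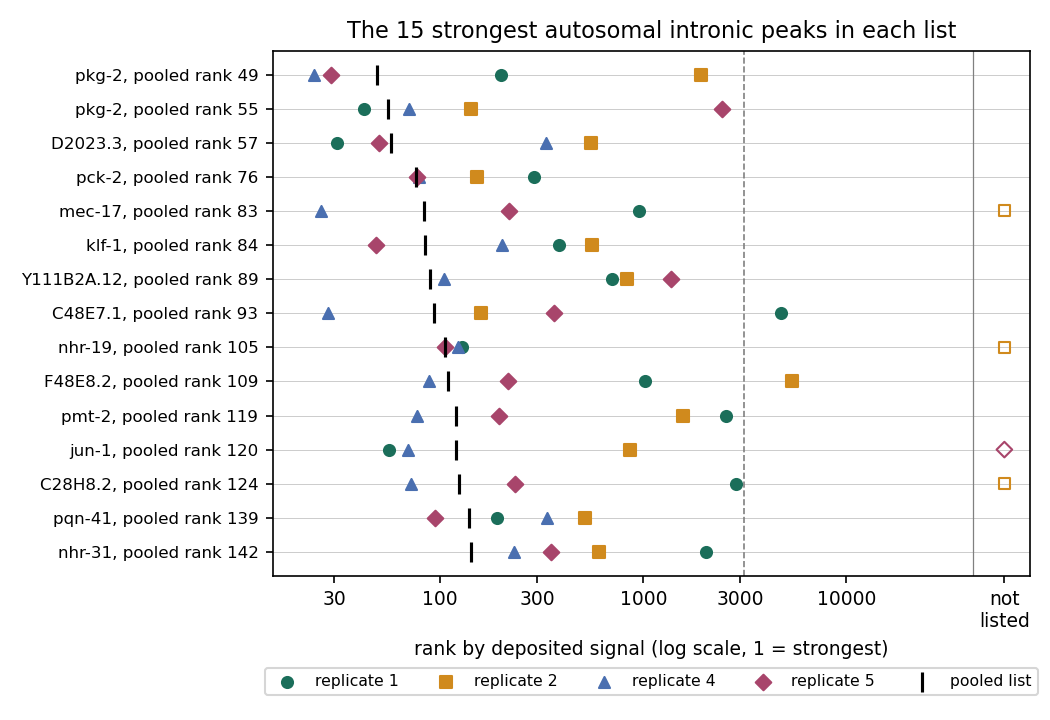
Rank by deposited signal in each list (horizontal axis, log scale, 1 is the strongest) of the 15 strongest autosomal intronic peaks, named by host gene and pooled rank (vertical axis). Filled symbols are replicates, black marks the pooled list, open symbols at the right are peaks with no summit within 100 bp in that replicate, and the dashed line is the length of the ranked set. The pck-2 peak ranked between 77 and 290 in the 4 replicates.

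Also among the 10 best mean ranks over the 4 replicates was F37B12.1, at 251, 156, 925 and 286, with 3 WGATAR copies and the nearest 1 bp from the summit. Both pqn-41 peaks of that set, in the 7776 bp intron 1 of a gene for a glutamine-rich protein, lacked the motif and ranked 190, 514, 335 and 94, and 465, 417, 173 and 290. The peak of wrt-1, a hedgehog-related gene, ranked 253, 226, 1271 and 1052, lay in a 343 bp first intron and had 1 copy. Of the 10 peaks of that set, 2 therefore lacked WGATAR.

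In their host genes, intronic peaks lay in first introns and in long introns more often than eligible bases did. A first intron here is that of any transcript, including transcripts that start inside the gene. Intron order and intron length were not separated. The first intron of a transcript held 173 of 371 (46.6%, Wilson interval 41.6 to 51.7), while first introns made up 27.8% of the eligible intron bases. In the replicates' own lists the first-intron share was 37.7%, 36.7%, 45.5% and 45.2% in replicates 1, 2, 4 and 5. For 187 peaks (50.4%, 45.3 to 55.5) the host gene had a further annotated 5′ end downstream of the summit, at a median distance of 2750 bp, and 23.6% of eligible bases had such a position. Introns over 2000 bp held 202 peaks (54.6% of the 370 that lay in an intron of any transcript), and 27.3% of the eligible bases. Where several introns held a summit or base, the shortest was taken. The median intron holding a peak was 2485 bp, the shortest 44 bp and the longest 20948 bp. WGATAR was about as frequent in first introns (34.1%, 27.5 to 41.4) as in later ones (38.9%, 32.4 to 45.8), with intervals that overlap. Similarly, it was in 35.3% of peaks upstream of a further 5′ end and in 70 of the other 184 peaks.

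The eligible intron bases came to 27.3% of the autosomes, and 371 of the 2421 autosomal peaks of the ranked set (15.3%, 13.9 to 16.8) lay in them. The host's own 5′ end was the nearest protein-coding 5′ end for 326 peaks (87.9%). The nearest such 5′ end of any gene lay at a median of 1554 bp over all peaks. Both values are given without those of the eligible bases, so they do not set the peaks apart from other intron positions. The chromosomes I, II, III, IV and V held 80, 92, 57, 78 and 64 of the peaks, given without the eligible bases of each chromosome. At 23 summits (6.20%) another gene that is not protein-coding was annotated, and 1.88% of eligible bases had such a gene. A gene classed as ncRNA was at 16 summits, antisense RNA at 5, lincRNA at 2 and piRNA at 1, where a summit can count under several classes. Near-identical copies elsewhere in the genome, at 90% identity over 80 bp or more, were found for 4 summit windows (1.08%), among them 1 in egl-23 with 191 copies and 1 in inx-21 with 67. The reads of those peaks could have come from several places.

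Intronic peaks were found in 277 of 14835 genes with eligible intron sequence (1.87%). Hosts had a median of 3817 eligible bp, against 646 over all such genes, and 202 of the 277 were among the 2967 genes with the most. Because longer introns offer more positions, the gene lists are given below with their rate per eligible megabase, which was 16.4 peaks over all genes. No list was tested.

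Of 21 epidermal regulators with eligible introns, 4 were hosts (96.7 peaks per Mb): egl-27, nhr-23, blmp-1 and lin-29, with 9 peaks in all. The egl-27 gene, which encodes a chromatin factor of the MTA family that acts in cell polarity, had 4 of these. Its strongest, with a signal of 64.5, ranked 40 in replicate 5 and was not listed within 100 bp in replicates 1, 2 and 4. In nhr-23, a nuclear hormone receptor gene needed for molting, the strongest of 3 peaks ranked 109, 505 and 9194 in replicates 1, 4 and 5 and was not listed in replicate 2. The blmp-1 peak, in the gene of a zinc finger factor of developmental timing, held 4 WGATAR copies and ranked 9842, 55, 2795 and 2212. The lin-29 peak, in the gene of the zinc finger factor that ends larval epidermal fate, had a signal of 28.8 and no copy.

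The cuticle collagen and molting lists held 3 peaks each, and over all genes the share of hosts was 1.87%. Of 23 cuticle collagens and collagen enzymes, 2 were hosts (8.70%, 87.3 peaks per Mb, on a median of 211 eligible bp per gene): dpy-31, an astacin protease that processes cuticle collagen, and phy-2, a prolyl 4-hydroxylase subunit. Neither is itself a collagen gene. Of 21 molting and apical matrix genes, 2 were hosts (9.52%, 71.1 per Mb), mlt-10 and lrp-1, the gene of an epidermal megalin-type receptor. Among 22 genes of epidermal attachment and junctions, 5 were hosts (22.7%, 27.7 per Mb): mua-3, mup-4, jac-1, afd-1 and vab-10. The mua-3 and mup-4 genes encode transmembrane proteins of the structures that tie epidermis to cuticle. The mua-3 peak printed above ranked 276, 1860 and 374 in replicates 2, 4 and 5 and was not listed in replicate 1.

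The list with the most peaks was insulin and stress response, where 6 of 23 genes were hosts of 12 peaks (26.1%, 83.1 per Mb). They were hlh-30, a TFEB-type factor of autophagy and lysosomes, atf-7, a bZIP factor of innate immunity, skn-1, the Nrf-type factor of the oxidative stress response, pqm-1, a zinc finger factor, daf-16, the FoxO factor of insulin signalling, and daf-2, the insulin receptor. The atf-7 peak had a signal of 47.1 and ranked 401, 976, 369 and 700, among the strongest of every replicate. The strongest hlh-30 peak held 4 WGATAR copies and ranked 18677, 2235, 518 and 1043, far weaker in replicate 1. The daf-16 gene held 4 peaks with signals of 28.1 to 33.2, and daf-2 held 1.

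Heterochronic genes, which time larval stages, had 2 hosts of 5, lin-42 and lin-29, with 4 peaks (137 per Mb). The strongest of 3 peaks in lin-42, a Period-type gene that cycles with the molts, had a signal of 63.3 and ranked 24, 3662, 4220 and 250, so it was among the strongest peaks of replicates 1 and 5 and lower down in 2 and 4. Of 26 Wnt signalling genes 1 was a host, the Nemo-like kinase gene lit-1, and of 10 genes of the body size TGF-beta pathway 0 were. Among lists for other tissues, body wall muscle had 1 host of 20, the perlecan gene unc-52, whose product lies between muscle and epidermis. Intestine, neuron, pharynx and germline had 0 hosts of 15, 21, 11 and 22 genes. Their eligible intron sequence came to 26.7, 100, 18.2 and 12.0 kb, in the same order. That of the body wall muscle list came to 145 kb, where the rate was 6.91 peaks per Mb, against 16.4 over all genes. The lists are short, and mec-17, of the touch receptor neurons, was a host outside the neuron list. Counts of 0 on such lists do not show that genes of these tissues lack intronic peaks.

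**Figure D5:**
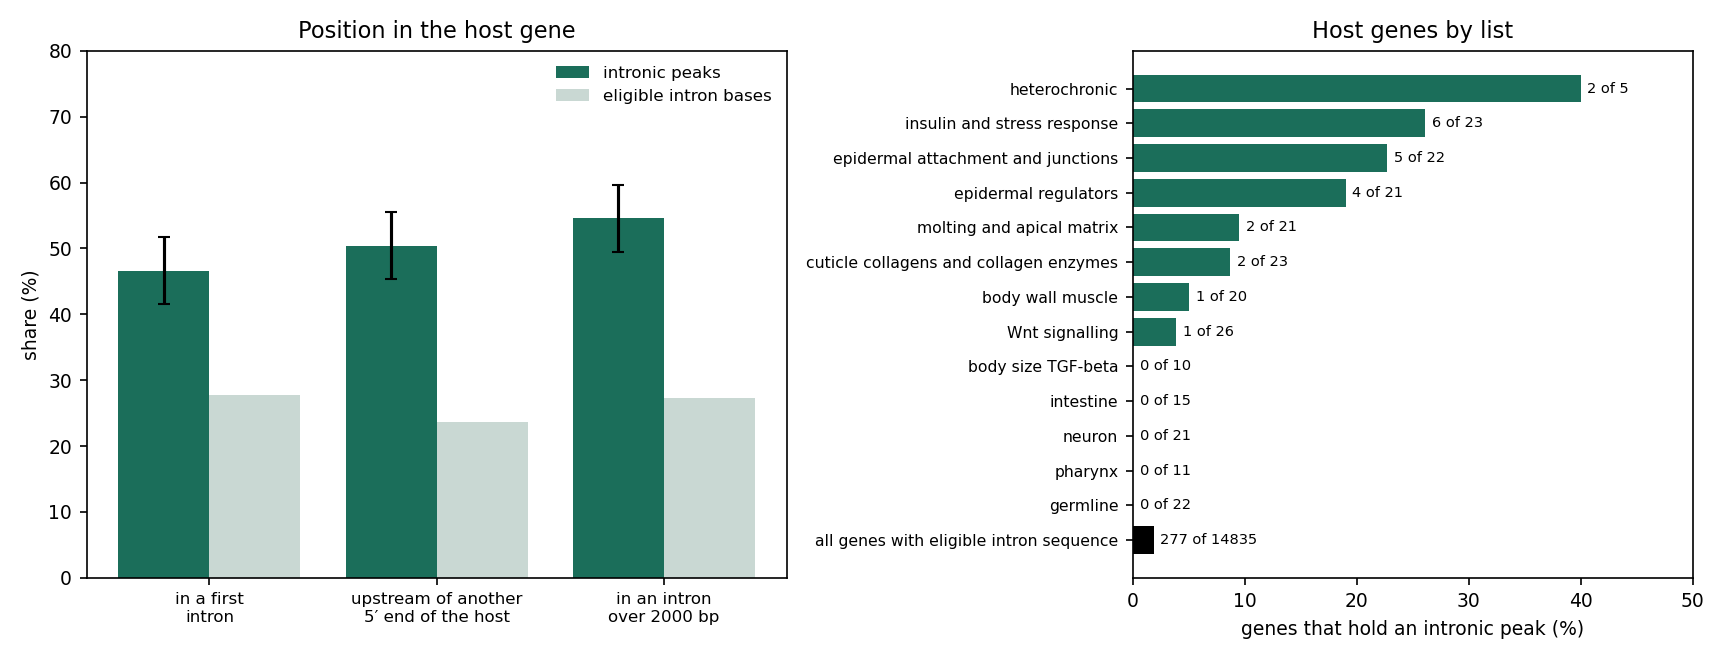
Left, share of the intronic peaks and of the eligible intron bases (vertical axis, %) in a first intron, upstream of another 5′ end of the host gene and in an intron over 2000 bp; bars on the peaks are Wilson 95% intervals. Right, share of genes with eligible intron sequence that hold an intronic peak (horizontal axis, %) for each list and for all genes, with counts beside the bars. The shares in the left panel were 46.6%, 50.4% and 54.6% of peaks against 27.8%, 23.6% and 27.3% of bases.

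Several genes held many peaks: 8 had 4 or more, 15 had 3 and 35 had 2, and 218 had 1. The 95 pairs of neighbouring peaks in 1 host gene lay a median of 1826 bp apart, between 207 and 21209 bp. The gene with the most was let-607, of a CREBH-type bZIP factor, with 7 peaks, of which 5 lay in its 6107 bp first intron and 2 in its 890 bp intron 3. Its strongest peak, with a signal of 47.6 at pooled rank 628, ranked 23968 in replicate 1 and 16953 in replicate 5 and was not listed within 100 bp in replicates 2 and 4. No single replicate therefore had that peak among its strongest within 100 bp. The phosphatase 4 subunit gene ppfr-1 held 6, Y67D8A.2 held 5, and egl-27, vhp-1 and let-526 held 4 each, as did daf-16 and daf-5. In vhp-1, which encodes a MAP kinase phosphatase, the strongest peak ranked 158, 1102 and 493 in replicates 1, 2 and 5, held GAGAGA and lay 1126 bp upstream of a further 5′ end of the gene.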

How the data were processed

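ELT-3 ChIP-seq peak lists of 6 libraries from 4 biological replicates were used, in 1 group. The authors deposited narrowPeak lists on ce11 and ce10, and the ce10 lists were not used here. Per the file headers, the replicate lists are inputs to the irreproducible discovery rate procedure and include background regions, the pooled list was called on all replicates, and the optimal list of 1047 peaks passed that procedure. The ranked set is the 3141 strongest pooled peaks, and the same number was taken from each replicate list. Summit and flank windows are 101 bp long. The deposited signal per peak was used only to rank peaks within a list, and the deposited −log10 q-value only to describe them. Which list belongs to replicate 2 was read from the listings deposited with its 3 libraries. The labels name a control that belongs to a different experiment and was not used. Peak caller, aligner and versions: not given in the sources used here. Read depth is likewise unknown. Wilson and Newcombe intervals cover counting error only, since neighbouring peaks are not independent and reads without molecular identifiers are not independent molecules.

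Summits were placed with Ensembl release 115 annotation of WBcel235, which is ce11, and sequences came from the RefSeq genome of that build. Coordinates count from 1. In replicate 5, mitochondrial peaks were dropped before ranking, leaving 29986. Eligible sequence is every autosomal base that meets the rule on position. WGATAR was searched on both strands, overlaps included. Tests were exact McNemar and Fisher's exact tests, two-sided, with Benjamini-Hochberg adjustment, and the scripts were tested on simulated data. No test treats replicates as samples, because 1 group was available. Tools were Python 3.11.15, numpy 2.4.6, pandas 2.3.3, scipy 1.17.1, matplotlib 3.10.9 and BLAST 2.17.0.

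The members, the gene lists and the tests were chosen with earlier results of these data known. Named genes are hosts of the 15 strongest members, up to 4 hosts of each list with the strongest member, 6 genes with the most members, the 10 best mean ranks among members matched in all 4 replicates and the peaks on either side of the rank limit. The genes srdh-1, egl-23, inx-21, daf-5, daf-16, daf-2 and vab-10, the backwards motif and the 6-mers printed were chosen after their values were seen. Alternatives were other numbers of peaks, promoter windows, motif windows, motifs, flanks and matching distances, each replicate's list alone and leaving out each replicate.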

Additional observations from a re-analysis of the deposited data

How the results depend on the processing

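Limits: all values rest on 1 transgenic line, 1 group and lists whose read depth is unknown, and peaks of unequal strength count alike. No paired analysis was possible because there was only 1 group, so no replicate number pairs 2 groups; summit and flank windows are compared within each peak. The number of autosomal intronic peaks was 117 in the authors' optimal list, 664 among 5000 and 2293 in the whole pooled list, and stayed within 1.5 times under other promoter windows and in each replicate's list. The motif excess at the summit over the flank kept its direction under every alternative run, from 0.601 points with the replicate 1 list alone and 4.84 with the replicate 2 list alone, where it no longer passed 0.05, to 26.2. Leaving out 1 replicate meant keeping the pooled peaks matched in at least 2 of the other 3, a smaller set in which the motif is more frequent, and gave 18.2 to 26.2, which is no test of its stability. Alternatives added after seeing the data gave 18.4 points for peaks without soft-masked bases and 17.4 for peaks with no near-identical copy. The share in intronic minus intergenic peaks no longer passed 0.05 within 25 bp (-2.15), within 100 bp (-6.55), with TGATAA only (-5.74), in the optimal list (-5.28) and with the lists of replicates 1, 2 and 4 alone (-5.59, -5.03 and -3.60). Leaving out 1 replicate gave -5.36 to 2.00, reversed at 2.00 without replicate 5. Against promoter peaks it was reversed with the lists of replicates 1 and 2 alone (-2.65 and -0.828), and leaving out 1 replicate gave 9.88 to 13.3, none past 0.05. The number of 6-mers that differed was 96 and became 177 within 100 bp, 24 in the optimal list and 7 to 33 without 1 replicate, on 88 to 141 peaks. The mean share of peaks matched in a replicate was 20.9% with as many replicate peaks as the optimal list holds, 53.4% with the 10000 strongest and 67.8% with whole lists, and 33.5% to 42.0% without 1 replicate. First-intron shares were 45.4% to 48.9% in subsets of the pooled peaks, and 37.7%, 36.7%, 45.5% and 45.2% in the own lists of replicates 1, 2, 4 and 5. The cause of these changes was not tested.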

Other observations

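By name class, meaning the letters before the hyphen and looked at after the data were seen, nuclear hormone receptor genes (nhr) held 19 of the intronic peaks in 10 of 242 genes with eligible introns (4.13%, 66.9 peaks per Mb). They were nhr-19, nhr-21, nhr-23, nhr-31, nhr-34, nhr-41, nhr-43, nhr-46, nhr-85 and nhr-97. Over all genes the share was 1.87% and the rate 16.4 per Mb. The strongest of 3 peaks of nhr-31, a receptor gene needed for the excretory canal, ranked 2025, 605, 232 and 352 in replicates 1, 2, 4 and 5 and had no WGATAR within 50 bp. The second ranked 17272, 957 and 5412 in replicates 1, 4 and 5, was not listed in replicate 2 and had 1 copy, 41 bp from its summit. The weakest ranked 5352, 17239 and 10523 in replicates 1, 2 and 5, was not listed in replicate 4 and had none. Of 21 patched-related genes (ptr), 4 were hosts of 1 peak each (55.6 per Mb): ptr-11, ptr-14, ptr-23 and ptr-25. Of 19 acyl-CoA synthetase genes (acs), 4 were hosts of 1 peak each (21.1%, 137 per Mb). The nhr, ptr and acs classes are only some of those for which rates were taken. In the unc class, 5 of 77 genes were hosts and the rate was 11.7 per Mb, below that over all genes. The rates of the let, daf, egl and lin classes were above it, at 190, 88.8, 58.8 and 36.1 per Mb. None of the name classes was tested. Hosts in general had more eligible intron sequence, a median of 3817 bp, against 646 bp over all genes.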
